A study of Homo sapiens with 24 samples.

Results

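The replication-independent histone variants are 10 genes that encode histones made outside S phase as well as within it: H1F0 and H1FX, H2AFX, H2AFY, H2AFZ, H2AFV and H2AFJ, H3F3A and H3F3B, and CENPA. They were taken by symbol from the 58174 genes listed for each cell line, and all 10 were found for all 4 lines. Total RNA was sequenced from A549 (lung cancer), ES-2 (ovarian cancer; ES2 in the library names), MV3 (melanoma) and PANC-1 (pancreas cancer; PANC1 in the library names), which are established human lines grown in DMEM with serum. Each line received either a control siRNA (siC) or siRNAs against IGF2BP1 (siI1), an oncofetal RNA-binding protein that stabilises many tumour mRNAs. Cells were harvested 72 h after transfection, or 96 h for PANC1, so that duration and line cannot be told apart there. Each of the 8 groups held 3 libraries, 24 in all, and 1 siRNA pool served all lines.

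Most nucleosomal histone protein comes from the replication-dependent genes of the histone clusters, whose mRNAs lack introns and a poly(A) tail, end in a stem-loop and accumulate in S phase. The variant genes lie outside those clusters, give mostly polyadenylated mRNAs, several of them spliced, and supply histones that chaperones place without DNA synthesis. H3.3 marks active genes and telomeres, H2A.Z sits beside transcription start sites, H2A.X is phosphorylated at DNA breaks, macroH2A is found on silent chromatin, and CENP-A defines the centromere. H1.0 and H1.X are linker histones, which bind where DNA enters and leaves the nucleosome.

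The stem-loop in the 3′ UTR was common among the replication-dependent genes and rare among the variant genes. The sequences below show it where a variant gene carries it. The search asked for a 6-base stem that opens with GG and a 4-base loop that opens with TT, with perfectly paired arms, in the 3′ UTR (hg38, GENCODE 44, transcript strand). H2AFX was the only variant gene with a match, 1 of 10, against 62 of 67 replication-dependent histone genes (92.5%) and 126 of 19188 protein-coding genes (0.657%). Capitals mark the stem arms. The H2AFX element (chr11:119094898-119094913, minus strand) lies 49 nucleotides after the stop codon and 1024 nucleotides before the annotated transcript end. Those of HIST1H1D (chr6:26234217-26234232, minus strand) and HIST1H2BL (chr6:27807484-27807499, minus strand), shown because they had the lowest average knockdown effects of the replication-dependent genes, lie 5 nucleotides before it. A distant element is not particular to H2AFX, since that of HIST2H2BE, a replication-dependent gene, lies 1729 nucleotides before the annotated end.
H2AFX: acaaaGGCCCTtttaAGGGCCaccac
HIST1H1D: taaacGGCTCTtttcAGAGCCaccca
HIST1H2BL: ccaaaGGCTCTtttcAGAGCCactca

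Promoters were read from RefSeq (GRCh38.p14, 250 bases before to 50 after the start), where 9 of the 10 genes matched with 13 windows. TATAAA, searched on both strands, was present for 4 genes, H1FX, H2AFX, H2AFZ and H3F3B, each time 29 to 31 bases before the start, in 4 of the 13 windows, and in 9.47% of 22183 promoters and 66.2% of 65 replication-dependent histone promoters. The 4 sites are shown with TATAAA in capitals.
H1FX (chr3:129316312-129316317, minus strand): gccatgaagcTATAAAaagccgagag
H2AFX (chr11:119095491-119095496, minus strand): cctgggggctTATAAAggcggcctcg
H2AFZ (chr4:99950301-99950306, minus strand): cattctgcagTATAAAgggagcaggg
H3F3B (chr17:75779803-75779808, minus strand): gaagcgtgccTATAAAaacggaggcg

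CCAAT, on either strand, was found for 8 of the 9 matched genes and in 10 of their 13 windows, against 34.7% of all promoters and 84.6% of replication-dependent histone promoters. TTTGAA was found for H2AFX, H2AFZ and CENPA (3 of 13 windows, 12.4% of all promoters). The letters TTTNNCGC, which a typical E2F site contains, were found for H2AFY, H3F3B and CENPA (3 of 13 windows, 8.33% of all promoters). The CENPA matches are shown because CENPA is known to be made mainly in G2.
CENPA, TTTGAA (chr2:26786038-26786043, plus strand): gagcgagcgaTTTGAAcgcgagcggc
CENPA, TTTNNCGC (chr2:26785824-26785831, plus strand): ggcaggagaaTTTCCCGCcccatctctt

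H3F3A and H3F3B encode the same 136 residues from coding sequences that differ at 88 of 408 bases. H2AFZ and H2AFV differ at 75 of 384 coding bases and at 3 of 128 residues. CENP-A aligned to H3.3 with 47.3% identical residues, H2A.X to H2A.J with 82.5%, and H1.0 to H1.X with 31.0%.

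Assigned reads per library ran from 3105215 to 4553326 in A549, the shallowest line, and from 15572492 to 20082702 in MV3, the deepest, with ES2 at 6421764 to 8419467 and PANC1 at 6532175 to 8472851. IGF2BP1 fell from 39.7 ± 0.0742 to 15.6 ± 0.674 FPKM (fragments per kilobase of gene, scaled to library size; mean ± SD, n = 3) in A549, and its siC and siI1 means were 11.1 ± 0.150 and 2.78 ± 0.0800 in PANC1, 9.26 ± 0.325 and 2.91 ± 0.126 in MV3, and 13.1 ± 0.915 and 4.14 ± 0.102 in ES2. All 5 epithelial markers reached 1 FPKM in A549 and PANC1. None of 6 melanocyte markers did so in MV3, which the authors name as amelanotic melanoma, where 3 were listed at 0. Nor did any of 4 lung markers in A549, where 3 were listed at 0. None of 3 ovarian clear cell markers did so in ES2, whereas CDH5, an endothelial cadherin, did, at 12.5 FPKM. The summed epithelial markers were at 759 to 840 FPKM in siC of A549 and at 378 to 403 in siI1. There KRT18, a member of the sum, fell by 1.51 (log2). In PANC1 the sum was at 1339 to 1761 in siC and 2059 to 2212 in siI1. KRT7, a pancreatic duct marker outside that sum, fell by 1.41 in A549 and rose by 0.56 in ES2. The part of these shifts in the results on histone variants was not tested.

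All 10 variant genes were expressed in every library, between 4.98 FPKM (H2AFJ in MV3) and 222 FPKM (H2AFZ in MV3), with 90 to 8007 reads behind each value. In the control cells H2AFZ was the highest of the 10 in every line, with a mean of 217 ± 6.65 FPKM in MV3, 151 ± 28.4 in ES2, 103 ± 16.8 in PANC1 and 93.5 ± 7.91 in A549. H2AFX followed in ES2 (112 ± 1.48), MV3 (104 ± 3.07) and PANC1 (95.3 ± 11.1), and in PANC1 its range overlapped that of H2AFZ. In A549 the next places belonged to H1F0 (61.0 ± 3.60), H3F3B (58.1 ± 1.35) and H2AFX (56.1 ± 7.88), whose ranges overlapped from each to the next.

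The tables of the lines were scaled separately, so levels in different lines are set side by side only. H1F0, the linker histone of differentiated and resting cells, took 14.2% of the summed FPKM of the 10 genes in A549 and 2.36% in MV3. H1FX took 18.1% in MV3 and between 9.07% and 11.2% in the others. CENPA, which is needed at a single site per chromosome, was still at 15.5 to 30.6 FPKM, at rank 5 of 10 in MV3, 7 in ES2, 8 in PANC1 and 9 in A549.

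Most places, and the shares, depend on the length used. The deposited FPKM divide by all annotated exonic bases, 17730 for H2AFY and 3356 for H2AFJ, whereas their canonical transcripts (GENCODE 44) span 1917 and 620. Per canonical kilobase H2AFY moved from rank 10 to rank 5 in A549 (94.9 ± 4.40 on that scale) and PANC1, from 9 to 3 in ES2 and from rank 9 to 5 in MV3, while H2AFZ was first in all 4 lines on either scale. H3F3B came second per canonical kilobase in A549, ES2 and PANC1, and H2AFX kept the second place only in MV3. H1F0 moved from rank 2 to 6 and H2AFJ from rank 8 to 3 in A549. CENPA went to rank 8 in MV3, 9 in ES2 and 10 in A549 and PANC1. On that scale H1F0 took 6.98% of the sum of the 10 in A549 and 1.24% in MV3, and H1FX took 8.90% in MV3 and between 4.26% and 5.12% in the others. Fold changes between siC and siI1 hardly depend on this length.

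**Figure D1:**
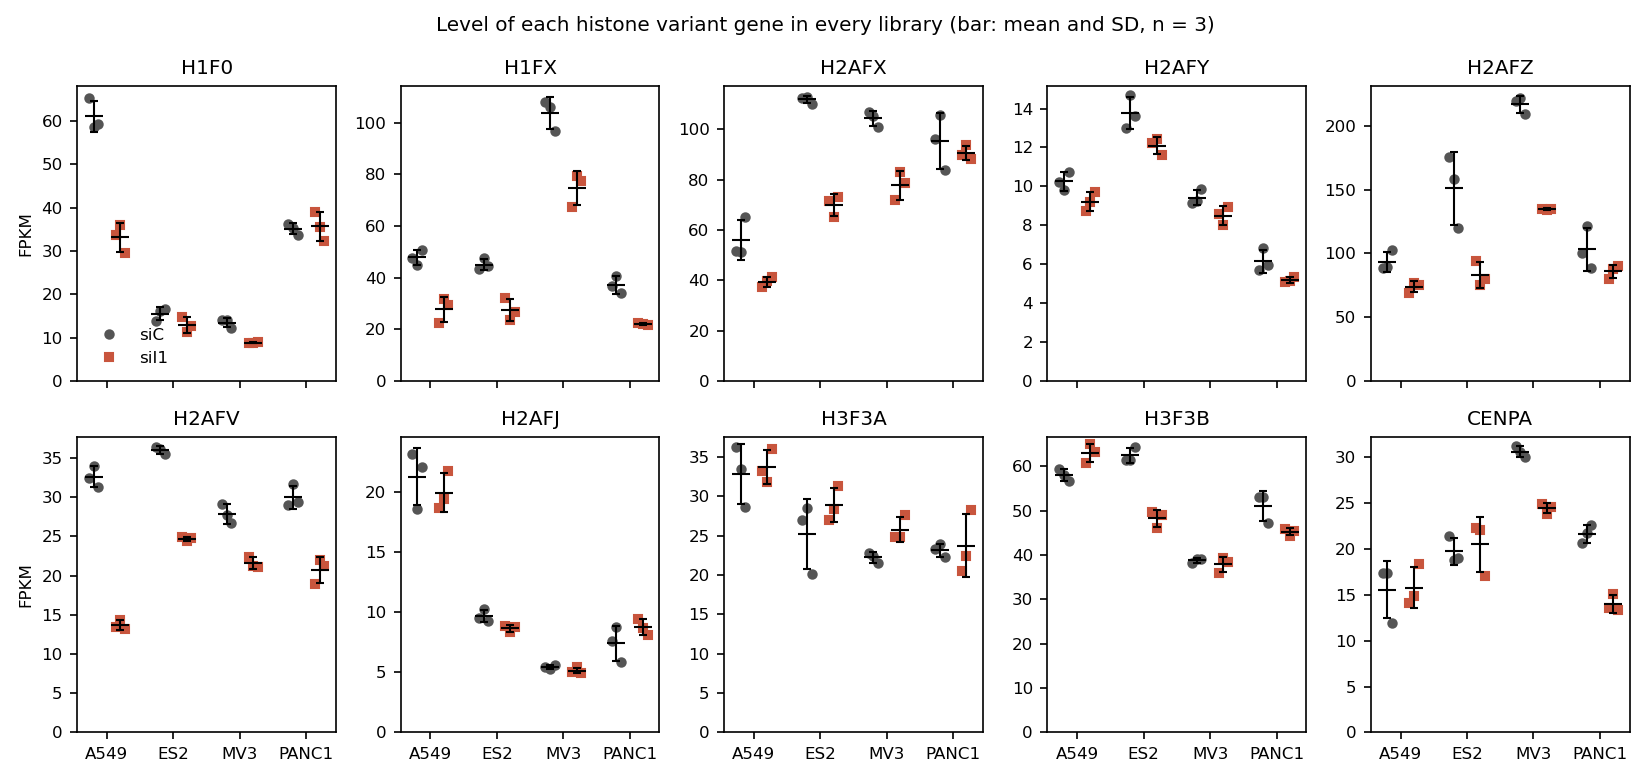
FPKM (y axis, from 0) of each of the 10 histone variant genes in the siC libraries (grey circles) and siI1 libraries (red squares) of each line, with mean and SD as black bars (n = 3). For H1FX and H2AFV the siI1 libraries lie below all siC libraries of the same line in 4 of 4 lines, whereas for H3F3A the groups overlap in A549, ES2 and PANC1. The share of all genes separated in this way was not computed.

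After IGF2BP1 knockdown, the linker histone H1FX and the H2A.Z gene H2AFV were lower in all 4 lines, H2AFX and H2AFZ in A549, ES2 and MV3, H1F0 in A549 and MV3, CENPA in MV3 and PANC1, and H3F3B in ES2. H3F3A was higher in MV3, the only rise past the threshold. H2AFY and H2AFJ did not pass the threshold in any line, although limma voom on recovered reads called H2AFY lower in ES2, MV3 and PANC1. Calls are from limma on log2(FPKM + 0.5), with an adjusted p under 0.05 over all genes tested in the line. Whether the groups overlapped is given as a description, since the share of all genes without overlap was not computed.

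In A549, 5 of 10 variant genes were lower, beside 7.83% of 18411 genes tested, and 0 were higher, beside 5.93%. In ES2, 5 were lower (13.0% of 16920 genes) and 0 higher (10.5%). In MV3, 6 were lower (19.5% of 16380) and 1 higher (16.3%). In PANC1, 3 were lower (13.4% of 15846) and 0 higher (11.3%). The median log2 fold change of the 10 was -0.24, -0.31, -0.34 and -0.20 in A549, ES2, MV3 and PANC1, beside -0.01, -0.02, 0.01 and -0.04 over all genes. With 1 library left out, 3 to 4 were lower in PANC1 and 2 to 4 in A549, where the count was 2 without siC replicate 1, 4 without siC replicate 2 and 3 without any other library. RN7SL2, the 7SL RNA, took 50.1% to 56.2% of the FPKM sum in siC of PANC1 and 62.0% to 64.6% in siI1. With libraries of PANC1 rescaled to the same sum, all 10 variant genes were lower there, but the median over all genes was then -0.68, against which H1FX was at -0.80, CENPA at -0.66, H2AFV at -0.59 and H3F3A at -0.04. In the 4 fits all 10 genes passed the filter on low values. For the 3 counts of 0 rises, limma voom on recovered reads also called 0 in each line; at an unadjusted p under 0.05, limma had 1 higher in A549 (H3F3B) and none in ES2 or PANC1.

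Averaged over the lines in 1 fit, 8 of 10 were lower, beside 28.1% of 12816 genes tested in every line, and 0 higher, beside 20.5%. H3F3A had an average of 0.12 ± 0.06 (log2 ± SE; limma adjusted p = 0.104; not under 0.05 without adjustment), which limma voom called higher (0.12, adjusted p = 0.0384). The size of the effect differed between lines for 6 of 10 genes, beside 45.0% of all genes (limma F test of the interaction).

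**Figure D2:**
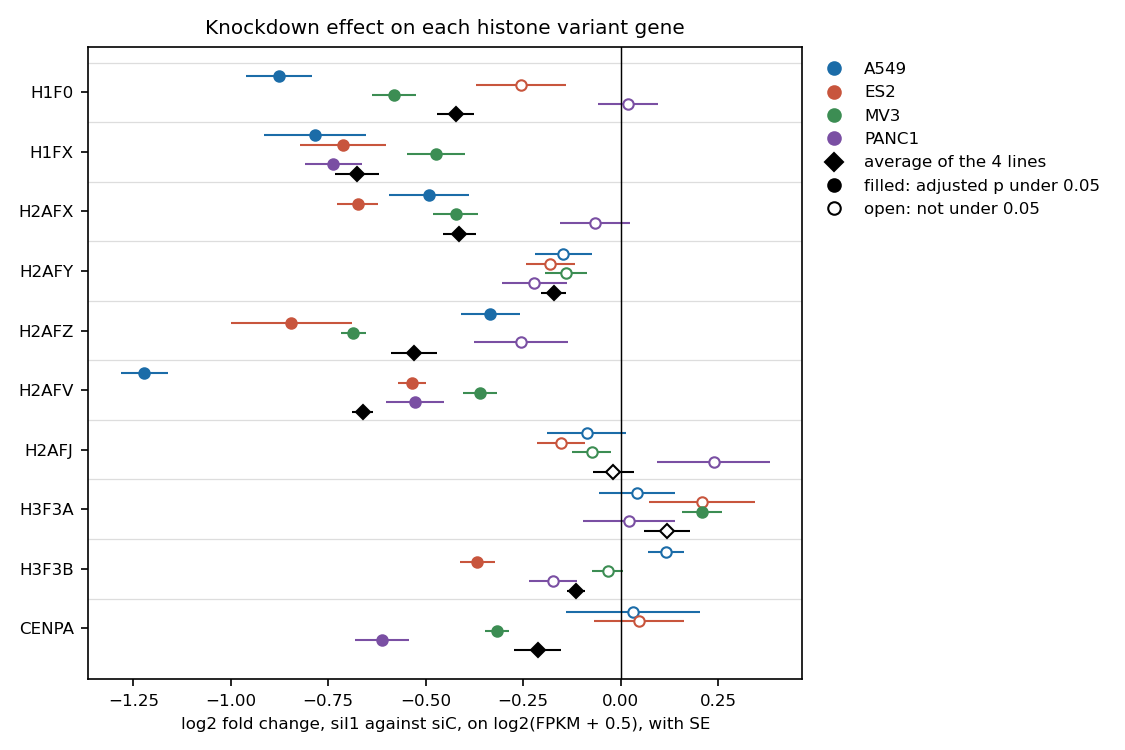
Log2 fold change of siI1 against siC (x axis, with SE) for each histone variant gene in each line (coloured circles) and averaged over the 4 lines (black diamonds), with filled symbols where the limma adjusted p was under 0.05. H1FX is filled in all 4 lines at -0.78 to -0.47, and H3F3A lies at or above 0 in all 4.

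Among the linker histones, H1FX gave the most even fall. It was at 47.8, 45.0 and 50.9 FPKM in siC and 22.5, 31.7 and 29.4 in siI1 of A549, at 43.3, 47.5 and 44.5 against 32.0, 23.7 and 26.9 in ES2, at 108, 106 and 96.8 against 67.3, 79.4 and 77.4 in MV3, and at 37.0, 40.7 and 34.0 against 22.4, 22.0 and 21.8 in PANC1. Every siI1 library was below every siC library of its line. The log2 fold changes were -0.78 ± 0.13 (SE; limma adjusted p = 0.0132), -0.71 ± 0.11 (0.00606), -0.47 ± 0.07 (0.00400) and -0.74 ± 0.07 (0.00189) in A549, ES2, MV3 and PANC1, and the differences between them did not pass the threshold (adjusted p = 0.321, F test). The A549 call was lost without siC replicate 1 (adjusted p = 0.0514) or siC replicate 3 (0.0530).

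H1F0 fell in A549 and MV3. It was at 65.2, 58.6 and 59.3 FPKM in siC of A549 and 33.7, 36.0 and 29.6 in siI1, a change of -45.7% in the mean (log2 -0.88 ± 0.08, limma adjusted p = 0.00242). In MV3 it went from 14.1, 14.0 and 12.3 to 8.80, 8.80 and 8.93 (-0.58 ± 0.06, 0.000737). In ES2 the groups overlapped, with 13.8, 16.1 and 16.7 against 14.9, 11.4 and 12.7 (-0.26 ± 0.12, 0.170). In PANC1, too, they overlapped, with 36.3, 35.2 and 33.8 against 39.0, 35.6 and 32.4 (0.02 ± 0.08, 0.883). The 4 effects differed (interaction adjusted p = 0.000148, limma F test), so that H1F0 took 48.6 ± 1.90% of the summed FPKM of H1F0 and H1FX in siC of PANC1 and 61.7 ± 1.89% in siI1, but 11.5 ± 0.184% and 10.6 ± 0.829% in MV3.

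H2AFX, the gene of the DNA-damage histone H2A.X, fell in A549, ES2 and MV3. Its FPKM in siC and siI1 were 51.7, 51.4 and 65.2 against 37.4, 39.8 and 41.4 in A549, 113, 113 and 110 against 71.7, 65.2 and 73.1 in ES2, and 107, 105 and 101 against 71.8, 83.1 and 78.6 in MV3. The groups did not overlap in these lines, whereas in PANC1 they did, with 96.1, 106 and 83.8 against 90.0, 93.9 and 88.1. The log2 fold changes were -0.49 ± 0.10 (limma adjusted p = 0.0279), -0.67 ± 0.05 (0.000603), -0.42 ± 0.06 (0.00226) and -0.07 ± 0.09 (0.644) in A549, ES2, MV3 and PANC1, and they differed (interaction adjusted p = 0.00322). Without PANC1 the adjusted p of the difference was 0.222. The A549 call was lost without siC replicate 1 (adjusted p = 0.0554) and without siI1 replicate 1 (0.0873), 2 (0.0833) or 3 (0.0628).

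H2AFZ and H2AFV, the pair of H2A.Z genes, were lower together, but in different proportions. H2AFZ was at 88.3, 89.7 and 103 FPKM in siC of A549 and 69.2, 77.1 and 75.6 in siI1, at 175, 158 and 120 against 94.5, 75.5 and 79.9 in ES2, at 219, 222 and 209 against 135, 134 and 135 in MV3, and at 100.2, 122 and 88.4 against 79.9, 87.6 and 90.2 in PANC1. The groups overlapped in PANC1 only. The log2 fold changes were -0.33 ± 0.08 (limma adjusted p = 0.0354), -0.84 ± 0.15 (0.0111), -0.69 ± 0.03 (0.000113) and -0.26 ± 0.12 (0.173) in A549, ES2, MV3 and PANC1, with a difference between lines (adjusted p = 0.0199; 0.0616 without PANC1). The A549 call did not survive the loss of any 1 of its 6 libraries (adjusted p from 0.0659 to 0.0966).

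H2AFV had its lowest log2 fold change in A549. There it went from 32.4, 34.0 and 31.4 FPKM to 13.5, 14.4 and 13.2, which is 42.9% of the control level on the log scale (-1.22 ± 0.06, limma adjusted p = 0.000474). The values were 36.4, 36.2 and 35.5 against 24.9, 24.4 and 24.8 in ES2 (-0.54 ± 0.04, 0.000392), 29.2, 27.7 and 26.7 against 22.4, 21.2 and 21.1 in MV3 (-0.36 ± 0.04, 0.00149), and 29.0, 31.7 and 29.4 against 18.9, 22.0 and 21.3 in PANC1 (-0.53 ± 0.07, 0.00473). No siI1 library reached a siC library in any line. The difference between lines (adjusted p = 2.58e-07) rested on A549, since without it the adjusted p was 0.119.

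H2AFY, the gene of macroH2A1, had small negative values throughout. Its siI1 libraries lay below all siC libraries in 4 of 4 lines. The share of all genes separated in this way was not computed. The changes in the mean were -10.1%, -12.2%, -9.65% and -15.6% in A549, ES2, MV3 and PANC1. The limma adjusted p-values were 0.260, 0.0871, 0.0911 and 0.107. Limma voom gave it adjusted p-values of 0.0114 in MV3, 0.0318 in PANC1 and 0.0180 in ES2, and limma with size factors gave 0.0496 in MV3. Averaged over the lines the log2 fold change was -0.17 ± 0.03 (adjusted p = 0.000174), and a difference between lines was not detected (0.840). H2AFJ, a mammalian H2A known to accumulate in senescent cells, had log2 fold changes of -0.09 ± 0.10, -0.15 ± 0.06, -0.07 ± 0.05 and 0.24 ± 0.14 in A549, ES2, MV3 and PANC1, none past the threshold (adjusted p from 0.128 to 0.639), and an average of -0.02 ± 0.05 (0.796).

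Of the H3.3 genes, H3F3A was higher in MV3 and H3F3B lower in ES2. H3F3A was at 36.3, 33.5 and 28.7 FPKM in siC of A549 and 33.2, 31.8 and 36.1 in siI1, at 27.0, 28.5 and 20.1 against 27.0, 28.4 and 31.3 in ES2, at 22.9, 22.4 and 21.5 against 24.9, 24.8 and 27.7 in MV3, and at 23.3, 23.9 and 22.3 against 20.5, 22.5 and 28.2 in PANC1. The groups were separate in MV3 only, where the log2 fold change was 0.21 ± 0.05 (limma adjusted p = 0.0223). That call was lost without siC replicate 2 (adjusted p = 0.0633) or 3 (0.0602). H3F3B, whose protein is the same, was at 61.5, 61.4 and 64.4 FPKM in siC of ES2 and at 49.8, 46.1 and 49.0 in siI1 (-0.37 ± 0.05, 0.00285). In A549 it was at 59.4, 58.1 and 56.7 against 60.7, 65.0 and 63.2 (0.12 ± 0.05, 0.165), so here the siI1 libraries were the higher ones. In PANC1 they were the lower ones (-0.17 ± 0.06, 0.0906), and in MV3 the groups overlapped (-0.03 ± 0.04, 0.540). The 4 effects on H3F3B differed (interaction adjusted p = 6.89e-05), and its average of -0.11 ± 0.02 (adjusted p = 0.000371) fell to -0.03 without ES2 (0.409).

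CENPA, the centromeric H3, fell in PANC1 and MV3. In PANC1 it went from 20.6, 21.7 and 22.6 FPKM to 13.6, 15.1 and 13.3 (-0.61 ± 0.07, limma adjusted p = 0.00255). In MV3 it went from 31.2, 30.5 and 30.0 to 24.9, 23.8 and 24.6 (-0.32 ± 0.03, 0.000695). In both, siI1 and siC were separate. In A549 the values were 17.3, 17.4 and 12.0 against 14.1, 14.9 and 18.4 (0.03 ± 0.17, 0.937), on 90 to 140 reads, and in ES2 21.4, 18.8 and 19.0 against 22.3, 22.1 and 17.1 (0.05 ± 0.12, 0.814), with overlapping groups. The difference between lines had an adjusted p of 0.0102 (0.251 without PANC1), and the average of -0.21 ± 0.06 (0.00693) lost its call without MV3 (adjusted p = 0.0913) or without PANC1 (0.439).

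Within the paralog pairs, the shares of FPKM changed in different directions by line. H2AFZ made up 74.1 ± 2.20% of H2AFZ plus H2AFV in siC of A549 and 84.4 ± 0.727% in siI1, with no overlap between the groups. In MV3 its share went the other way, from 88.6 ± 0.321% to 86.2 ± 0.362%, also without overlap. It was 80.4 ± 2.96% and 77.0 ± 1.89% in ES2, and 77.3 ± 2.13% and 80.6 ± 0.541% in PANC1, with overlap between the groups in ES2 and without it in PANC1. H3F3A made up 36.0 ± 2.21% of the H3.3 pair in siC and 34.8 ± 1.78% in siI1 of A549, 28.7 ± 4.27% and 37.4 ± 1.98% in ES2, 36.5 ± 0.960% and 40.5 ± 1.59% in MV3, and 31.2 ± 0.786% and 34.3 ± 3.74% in PANC1. The groups were separate in ES2 and MV3. Per canonical transcript length the H3F3A share in siC was 34.2% to 42.7% and the H2AFZ share 82.9% to 92.9%. These shares were not tested.

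**Figure D3:**
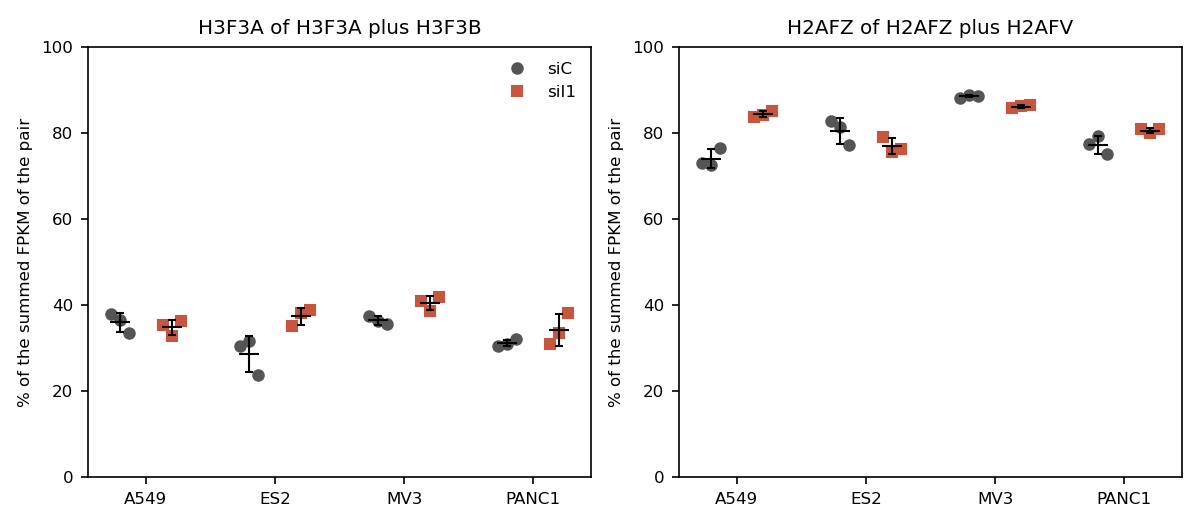
Share (y axis, % of the summed FPKM of the pair) of H3F3A in H3F3A plus H3F3B and of H2AFZ in H2AFZ plus H2AFV, in each siC (grey circles) and siI1 (red squares) library, with mean and SD (n = 3). The H2AFZ share is higher in siI1 than siC in A549 (84.4% against 74.1%) and lower in MV3 (86.2% against 88.6%).

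The variants were set beside the replication-dependent genes of the same class. Because the cluster genes fell, a gene that did not change would also have a higher ratio to them. The ratio was higher in all 4 lines after knockdown for 6 of 10 variants, a count that therefore says nothing particular about them. The median log2 fold change over all genes was -0.01, -0.02, 0.01 and -0.04 in A549, ES2, MV3 and PANC1. The share of all genes with a higher ratio was not computed. Of 72 protein-coding cluster genes, 56, 61, 60 and 58 were tested in A549, ES2, MV3 and PANC1, of which 43, 58, 54 and 27 were lower and 0, 0, 2 and 0 higher, with median log2 fold changes of -0.64, -0.97, -0.77 and -0.48. HIST1H1D (average -1.09 ± 0.06) and HIST1H2BL (-0.89 ± 0.07) had the lowest average effects and HIST1H3E (0.29 ± 0.07) the highest. Cluster genes are close copies, so reads may be split between them, and summed values were used. The 6 H1 cluster genes together went from 1544 ± 72.9 to 926 ± 50.6 FPKM in A549, and the 16 H3 cluster genes from 5484 ± 422 to 2835 ± 224 in ES2.

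The log2 ratio of each variant to the summed cluster genes of its class was compared between siI1 and siC and averaged over lines. With 0.5 FPKM added to both parts of the ratio, scaling of whole libraries changes it only through that addition. An exact permutation test of the libraries within lines was used (two-sided, 10 ratios tested). The smallest p that 160000 permutations can give is 1.25e-05. For H3F3A the ratio to cluster H3 rose by 0.86 ± 0.33 (SD over 4 lines; exact p = 1.25e-05) and for H3F3B by 0.62 ± 0.24 (exact p = 1.25e-05), in 4 of 4 lines each. The ratio to cluster H2A rose for H2AFJ by 0.67 ± 0.10 (exact p = 1.25e-05), for H2AFY by 0.52 ± 0.25 (exact p = 5e-05) and for H2AFX by 0.28 ± 0.07 (exact p = 1.25e-05), likewise in 4 of 4 lines. The ratio was chosen after the values were seen, and a fall of the cluster genes alone raises it. The exact p-values are therefore no test of a change in the variant genes themselves. On their own, H3F3A (average 0.12, limma adjusted p = 0.104) and H2AFJ (-0.02, 0.796) were not past the threshold. H3F3B, H2AFY and H2AFX were themselves lower on average.

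Ratios of the others were less uniform. The ratio of H2AFZ rose by 0.16 ± 0.12 in 4 of 4 lines (exact p = 0.00791), but without A549 the change was 0.10 (exact p = 0.119). That of H2AFV changed by 0.03 ± 0.47 (exact p = 0.785), since it was -0.56 in A549 and 0.42 in ES2; without A549 the average was 0.22 (exact p = 0.0273). CENPA rose against cluster H3 in 3 of 4 lines (0.52 ± 0.47, exact p = 0.000588), with -0.12 in PANC1, and H1F0 against cluster H1 in 3 of 4 (0.42 ± 0.41, exact p = 0.00106), with -0.14 in A549. H1FX stayed closest to its class among the H1 genes, with 0.16 ± 0.25 (exact p = 0.0207), and not past 0.05 without ES2 (exact p = 0.158) or without MV3 (0.328). Summed over all classes, the variants were 3.97 ± 0.106% of histone FPKM in siC of A549 and 4.54 ± 0.0338% in siI1, 2.06 ± 0.163% and 2.64 ± 0.0473% in ES2, 2.995 ± 0.0483% and 3.84 ± 0.114% in MV3, and 2.56 ± 0.259% and 3.08 ± 0.0808% in PANC1, without overlap in any line. Both sums fell in every line, in A549 from 429 to 330 FPKM for the variants and from 10395 to 6933 for the cluster genes. The level of the share depends on the length used. The length in the FPKM was between 0.994 (H1FX) and 9.25 (H2AFY) times the canonical one.

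**Figure D4:**
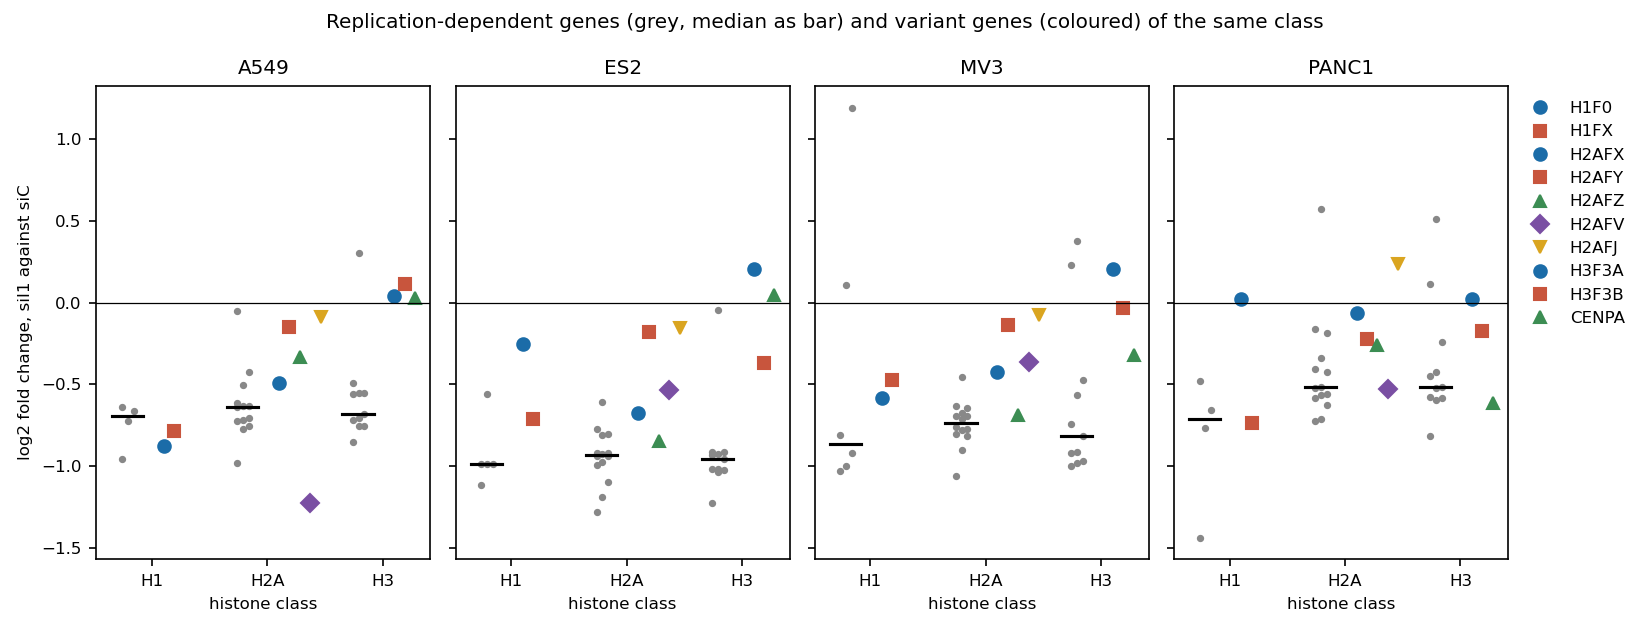
Log2 fold change of siI1 against siC (y axis) in each line for replication-dependent genes (grey points, median as a black bar) and variant genes (coloured symbols) of the H1, H2A and H3 classes. In the H3 class, H3F3A and H3F3B lie above the median of the cluster genes in all 4 panels, while H2AFV lies below all H2A cluster genes in A549.

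The chaperones that place the variants were taken as lists, whose counts stand beside the shares of all genes tested, in A549, ES2, MV3 and PANC1, of 7.83%, 13.0%, 19.5% and 13.4% lower and 5.93%, 10.5%, 16.3% and 11.3% higher. HJURP, which carries CENP-A to the centromere, and the MIS18 complex, which licenses the site, formed a list of 6 with RBBP4 and RBBP7. It had 5 lower genes in MV3 and in PANC1, above those shares, and 1 in A549 and in ES2, near them, with 1 higher in A549 (RBBP7) and 0 in the others. The median log2 fold changes were -0.14, -0.03, -0.38 and -0.51 in A549, ES2, MV3 and PANC1. CENPA itself was lower in MV3 and PANC1. HJURP was at -0.31 ± 0.10 (limma adjusted p = 0.0912), -0.31 ± 0.05 (0.00520), -0.69 ± 0.04 (0.000152) and -0.42 ± 0.07 (0.00860) in A549, ES2, MV3 and PANC1. MIS18A had an average of -0.43 ± 0.06 and RBBP4 of -0.36 ± 0.04. By line, MIS18A ranged from -0.80 in PANC1 to -0.17 in ES2, and RBBP4 from -0.72 in A549 to -0.04 in ES2.

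The 7 H3.3 genes (HIRA complex, ASF1A, DAXX and ATRX) had 1, 1, 1 and 0 lower and 0, 2, 3 and 0 higher in A549, ES2, MV3 and PANC1, with medians of -0.01, 0.09, 0.14 and -0.0013. At most 1 of 7 lower is close to the shares over all genes. ATRX, the remodeller that partners DAXX at repeats, rose in ES2 (0.56 ± 0.07, limma adjusted p = 0.00323) and MV3 (0.48 ± 0.05, 0.000984). In A549 (0.22 ± 0.08, 0.120) and PANC1 (-0.20 ± 0.10, 0.191) ATRX was not past the threshold. DAXX fell in ES2 (-0.76 ± 0.15, 0.0154), and its average of -0.36 ± 0.11 was not past the threshold without A549 (adjusted p = 0.135) or without ES2 (0.205). DAXX was low, at 2.04 FPKM in siC and 0.991 in siI1 of ES2, on 25 to 59 reads per library. In A549 it was at 1.31 and 0.528, on 2 to 22 reads. UBN1, of the HIRA complex, averaged -0.18 ± 0.03, with 0.09 ± 0.06 in ES2.

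Of 11 genes that place or remove H2A.Z, 1, 4, 5 and 2 were lower and 0, 0, 1 and 1 higher, with medians of 0.00, -0.22, -0.13 and -0.04. The lower counts in A549 and PANC1 were near the shares over all genes (7.83% and 13.4%). ANP32E, the chaperone that strips H2A.Z from nucleosomes, was lower in all 4 lines (-0.62 ± 0.11, -0.53 ± 0.07, -1.13 ± 0.03 and -0.89 ± 0.08 in A549, ES2, MV3 and PANC1; largest limma adjusted p = 0.0148). INO80 averaged -0.29 ± 0.03, with 0.0012 ± 0.10 in A549. ZNHIT1, a subunit of the SRCAP complex that inserts H2A.Z, averaged 0.33 ± 0.03, with 0.79 ± 0.07 in PANC1.

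**Figure D5:**
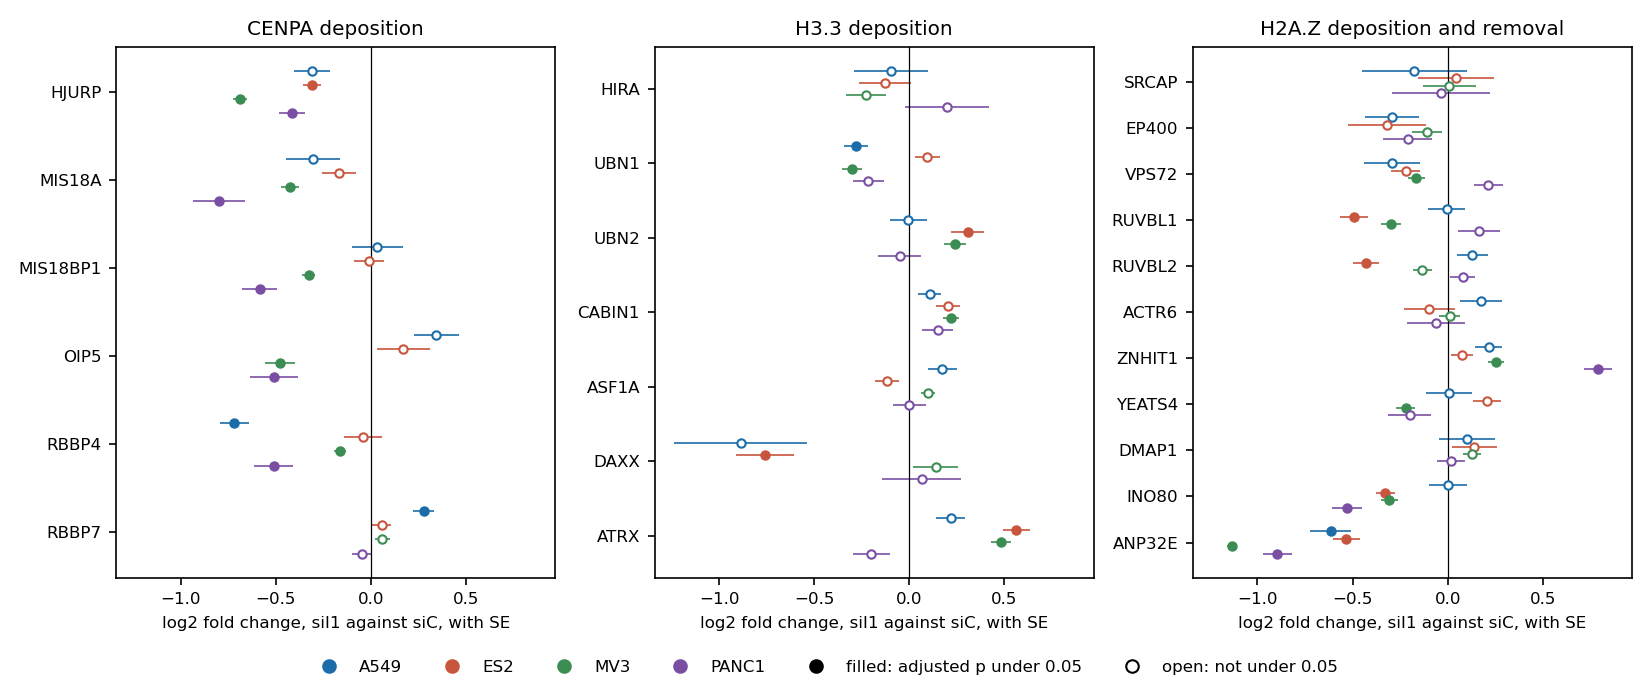
Log2 fold change of siI1 against siC (x axis, with SE) for genes that place CENP-A, H3.3 and H2A.Z, in each line (colours; filled where the limma adjusted p was under 0.05). ANP32E is filled and below 0 in all 4 lines, and 5 of 6 genes of the CENP-A list are filled in MV3 and in PANC1.

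Replication-coupled and general chaperones, a list of 8, had 2, 3, 7 and 5 lower and 1, 1, 1 and 0 higher in A549, ES2, MV3 and PANC1, led by CHAF1A (average -0.60 ± 0.04), the large subunit of CAF-1, with CHAF1B at -0.38 ± 0.05 and SSRP1 at -0.33 ± 0.04. Of 10 genes for the transcription and 3′ processing of cluster histone mRNAs, 1, 3, 4 and 4 were lower and 0, 1, 0 and 0 higher, where 1 of 10 in A549 is near the 7.83% over all genes. CPSF2, which belongs to the cleavage complex, averaged -0.99 ± 0.03 and was lower in all 4 lines. NPAT averaged -0.34 ± 0.04 and ZNF473 -0.19 ± 0.04, a call that was lost without MV3 (-0.13, limma adjusted p = 0.0818). By line, NPAT was past the threshold only in PANC1 (-0.58 ± 0.08, limma adjusted p = 0.00494) and ZNF473 only in MV3 (-0.38 ± 0.04, 0.00107). Of 20 cell cycle genes, 8, 11, 20 and 17 were lower, beside 7.83%, 13.0%, 19.5% and 13.4% of all genes, and 0, 0, 0 and 1 higher, with medians of -0.28, -0.37, -0.49 and -0.48. Among them CCNE1 averaged -0.67 ± 0.05, MKI67 -0.65 ± 0.09 and E2F1 -0.61 ± 0.05. Not past the threshold were CCNE1 in PANC1 (-0.15 ± 0.07, limma adjusted p = 0.162) and MKI67 in ES2 (-0.60 ± 0.20, 0.0751). The part of cell cycle position in the falls of the variants was not tested, and in bulk RNA fewer cells of a kind and less RNA per cell cannot be told apart.

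Rarer variant genes were mostly silent. Of 7 others, H2AFY2 (macroH2A2) reached 0.5 FPKM only in A549, at 27.7 ± 4.58 FPKM in siC and 16.8 ± 2.06 in siI1 (-0.70 ± 0.15, limma adjusted p = 0.0272). It had at most 8 reads in PANC1 and was listed at 0 in all libraries of ES2 and MV3. H3F3C, a retrocopy of H3F3B, was at 3.44 to 6.30 FPKM in siC and did not pass the threshold in any line. The testis and oocyte genes H2AFB1, H2AFB2, H2AFB3, H1FNT and H1FOO had at most 4 reads in any library.

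Of 12 pseudogenes of the variants listed, 3 reached a mean of 0.5 FPKM, all of them copies of the H3.3 genes. H3F3AP4 was at 47.5 to 77.2 FPKM in siC, on no more than 468 reads per library and over 411 bases. H3F3A was lower than that in FPKM, which divide by 3146 bases, and higher per canonical kilobase (65.4 to 96.5), so the order of the 2 genes depends on the length. H3F3AP6 was at 7.59 to 12.5 FPKM and H3F3BP1 at 3.42 to 4.37. None passed the threshold. Such copies share sequence with H3F3A and H3F3B, so their counts, and in part those of the parent genes, are uncertain. The antisense transcript H1FX-AS1 was at 1.93 ± 0.192 FPKM in siC of MV3, beside 104 for H1FX. Spans of H1FX, H2AFY, H2AFZ, H3F3A and H3F3B overlap antisense genes, and that of CENPA overlaps SLC35F6 on the same strand.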

How the data were processed

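Total RNA was depleted of ribosomal RNA (RiboCop) and sequenced from directional libraries. According to the methods and the submitters' processing notes, the authors trimmed reads with Cutadapt 1.14, aligned them with HISAT2 2.1.0 to hg38, sorted them with SAMtools 1.5 and counted them per Ensembl gene with featureCounts 1.5.3. The strand setting is not given in the sources used here. The authors deposited FPKM per library, scaled by TMM in edgeR 3.30.3, in 1 table per line. The unit was worked out from the values, which gave whole reads (within 0.01) for 100% of them. The deposited columns with the authors' log2 fold change, p-value and FDR were not used. RNA from RN7SL2 made up 30.5% to 64.6% of the FPKM sum.

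Genes that averaged 0.5 FPKM or more were tested with limma 3.58.1 (R 4.3.3; trend, two-sided) on log2(FPKM + 0.5), which understates changes of low genes, per line on 6 libraries and jointly on 24, with Benjamini-Hochberg adjustment over all genes and a threshold of 0.05. The methods name 3 biological replicates per condition; pairs of replicates differed by more than sampling noise (chi-square per gene 1.54 to 15.1), so all counted. The scripts were tested on simulated data. The 10 genes and all lists were chosen with earlier results of these data known, and the ratio to cluster genes after the values were seen. Named genes were the 10, IGF2BP1, the cluster genes with the 2 lowest and the highest average effect, up to 3 per list with the largest average effect past the threshold, expressed pseudogenes and antisense partners, and the 3 genes most like each of the 10. CDH5, RBBP7, SLC35F6, HIST2H2BE and the rarer variant genes were named after their values were seen.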

Additional observations from a re-analysis of the deposited data

Results flagged for a closer look

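The effect of the knockdown differed between the 4 lines for 6 of the 10 variant genes, by a test of the difference itself (limma F test of the interaction, adjusted over 12816 genes, of which 45.0% passed). H1F0 (adjusted p = 0.000148) ranged from -0.88 in A549 to 0.02 in PANC1 on the log2 scale. H2AFX (0.00322) ranged from -0.67 in ES2 to -0.07 in PANC1. H2AFZ (0.0199) ranged from -0.84 in ES2 to -0.26 in PANC1. H2AFV (2.58e-07) ranged from -1.22 in A549 to -0.36 in MV3. H3F3B (6.89e-05) ranged from -0.37 in ES2 to 0.12 in A549. CENPA (0.0102) ranged from -0.61 in PANC1 to 0.05 in ES2.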

How the results depend on the processing

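Each result was recomputed with pseudocounts of 0.1 and 1, with no filter and with a minimum of 1 FPKM, with size factors, with the same FPKM sum, with limma voom on recovered reads, with replicate blocks and with each library or line left out. The same FPKM sum moved the median of all genes in PANC1 from -0.04 to -0.68, and gave 10 lower variant genes and 8966 genes past the threshold there. It gave 10 variant genes with a difference between lines, and it turned H1F0 (-0.73), H2AFJ (-0.47) and H3F3A (-0.72) in PANC1, CENPA in A549 (-0.0024) and the average of H3F3A (-0.059). Relative to that median, H1F0, H2AFJ and H3F3A in PANC1 were at -0.04, 0.21 and -0.04. Limma voom gave 4176 genes past the threshold in A549, 5 lower variant genes in PANC1 and 1 higher on average. Without a filter H2AFZ was not past the threshold in A549 (adjusted p = 0.0553).

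Replicate numbers did not pair the libraries (correlations of -0.0562 to 0.0711; not every library correlated best with its own number). With replicate blocks, 1001 genes passed in A549, 2612 in ES2 and 0 variant genes were higher in MV3 (H3F3A adjusted p = 0.0696); H2AFZ in A549 (0.0672) and the difference between lines of CENPA (0.0535) were not past the threshold.

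With 1 library left out, lower variant genes numbered 2 to 4 in A549, 5 to 5 in ES2, 6 to 6 in MV3 and 3 to 4 in PANC1, higher ones 0 to 0 in A549, ES2 and PANC1 and 0 to 1 in MV3, and genes past the threshold 1374 to 1797, 2638 to 3096, 4487 to 5594 and 2278 to 3842. With 1 line left out, 7 to 8 were lower and 0 to 0 higher on average, and 3 to 6 differed between lines. Log2 fold changes that changed sign with 1 library left out ranged from -0.051 to 0.12 (H3F3A) and -0.14 to 0.12 (CENPA) in A549, -0.018 to 0.17 (CENPA) in ES2, -0.059 to 0.0023 (H3F3B) in MV3, and -0.15 to 0.014 (H2AFX), -0.046 to 0.086 (H1F0) and -0.11 to 0.12 (H3F3A) in PANC1. With 1 line left out, averages ranged from -0.10 to 0.026 (H2AFJ), -0.57 to 0.14 (KRT18) and -0.60 to 0.060 (KRT7), and the change in the ratio of H2AFV to cluster H2A from -0.10 to 0.22. The cause was not tested. Depth limits CENPA in A549, at 90 to 140 reads per library, and H1FX there, at 109 to 336.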

Other observations

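The genes whose pattern was most like each variant were sought among 4920 protein-coding genes with at least 5 FPKM on average in every line, over 24 libraries after the mean of each line was taken off. All points share the knockdown contrast, so r is given as a description. H2AFX was most like HIST2H2AA4 (r = 0.966), ACTN4 (0.964) and HIST1H2BD (0.963), and H2AFZ most like HIST1H2BL (0.958), EIF3K (0.956) and SLC25A5 (0.953). H1FX was most like INCENP (0.964), PSMD4 (0.960) and P4HB (0.959), H1F0 like FAM50A (0.954), DUSP3 (0.939) and EHD4 (0.933), and H2AFV like TXLNA (0.978), CLIC4 (0.976) and PDXK (0.976). H2AFY was most like MKI67 (0.910), TACC3 (0.892) and CLTC (0.887), CENPA like USP1 (0.911), GOLIM4 (0.857) and SMCHD1 (0.856), and H3F3B like PTMA (0.872), DYNC1H1 (0.872) and PPARG (0.855). For H2AFJ the leading genes were MRPL28 (0.845), CENPX (0.839) and PPP1CA (0.818), and for H3F3A they were PPP3CA (0.687), ZFAND5 (0.666) and TTC3 (0.663), the lowest leading values of the 10.

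Between the variants, r was 0.90 for H2AFX with H2AFZ, 0.88 for H1FX with H2AFV and 0.84 for H1FX with H2AFX. It was -0.31 for H3F3A with H3F3B, whose protein is the same, and 0.67 for H2AFZ with H2AFV.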
